A study of Mus musculus with 4 samples.

Results

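The droplets described here came from single-cell RNA-seq of mouse peripheral blood and carried platelet transcripts together with leukocyte transcripts. A droplet was a member when the unique molecular identifiers (UMIs, which tag single captured RNA molecules) of Ppbp, Gng11, Itga2b, Gp9, Treml1 and Clec1b summed to at least 5 and those of the macrophage genes C1qa, C1qb and C1qc summed to at most 4. The members were thus selected on the measured UMIs of these genes, so the levels of the 6 platelet genes in members are a description and support nothing. Of 14588 droplets, 495 were members. The blood came from female C57BL/6 mice of 4 months (young) and 24 months (old), with no treatment or engineered allele named. Each of the 2 young and 2 old samples was a pool of 2 mice, so that no value belongs to a single mouse. Cells had passed a density gradient and red blood cell lysis before capture by the 10x Chromium 3′ assay and read for 14697 genes.

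Platelets are fragments without a nucleus that megakaryocytes shed into the blood, and they keep RNA from the parent cell. They carry integrin and glycoprotein receptors that bind fibrinogen, von Willebrand factor and collagen, and granules filled with chemokines and clotting proteins. Activated platelets can attach to monocytes, neutrophils and lymphocytes, and a droplet assay reads everything captured in 1 droplet as 1 cell.

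Megakaryocyte genes are known targets of the GATA and ETS families of transcription factors, so the stretches upstream of the start site were searched for short forms of those motifs (AGATAA or its reverse TTATCT, and CCGGAA or its reverse TTCCGG, both strands). The 150 bases before the start are shown for 4 glycoprotein and chemokine genes among those searched. They are from RefSeq on build GRCm38.p6, 5′ to 3′ along the gene, with each GATA-type match in capitals. The same stretches of Itga2b, Treml1, Clec1b, Pf4, Gp1bb, Alox12, Nrgn and Myl9 were searched too, held neither motif and are not shown. Gp5 lay at chr16:30310782-30310931 (minus strand), Gp6 at chr7:4397745-4397894 (minus strand), Ppbp at chr5:90768368-90768517 (plus strand) and Gp9 at chr6:87777920-87778069 (plus strand).
Gp5: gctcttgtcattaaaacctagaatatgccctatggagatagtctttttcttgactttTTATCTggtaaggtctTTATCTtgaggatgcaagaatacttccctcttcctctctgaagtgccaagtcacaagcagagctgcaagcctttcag
Gp6: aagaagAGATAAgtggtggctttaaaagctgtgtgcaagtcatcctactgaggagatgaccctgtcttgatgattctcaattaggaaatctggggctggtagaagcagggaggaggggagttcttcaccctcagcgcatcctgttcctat
Ppbp: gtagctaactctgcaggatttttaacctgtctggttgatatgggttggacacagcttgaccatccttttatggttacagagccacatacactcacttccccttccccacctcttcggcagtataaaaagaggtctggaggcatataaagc
Gp9: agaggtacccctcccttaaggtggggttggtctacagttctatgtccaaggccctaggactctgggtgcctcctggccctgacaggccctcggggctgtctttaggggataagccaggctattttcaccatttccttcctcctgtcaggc
The Gp5 stretch held TTATCT 93 and 77 bases before the start, the Gp6 stretch held AGATAA 144 bases before it, and the Ppbp and Gp9 stretches held neither motif. Over the 250 bases before the start, the GATA-type letters stood in 8 of the 51 platelet-list genes outside the rule that had an entry (15.7%), in 0 of 5 rule genes and in 827 of 10655 genes of the count table (7.76%). The ETS-type letters stood in 8 of 51 platelet-list genes (15.7%) and in 2568 of 10655 genes (24.1%). Over all 27025 genes of the promoter table the shares were 11.4% for the GATA-type and 13.6% for the ETS-type letters, so the order of the ETS-type shares depended on the genes compared with. A match is a description of the sequence and no evidence of binding.

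Members were found almost only in the old samples. Young sample 1 held 0 members among 3902 droplets, which allows a share of up to 0.0769%, and young sample 2 held 2 among 3857 (0.0519%, exact 95% binomial interval 0.00628 to 0.187%). Old sample 1 held 396 among 4642 (8.53%, interval 7.74 to 9.37%) and old sample 2 held 97 among 2187 (4.44%, interval 3.61 to 5.38%). Both old samples stood above both young samples, with a difference in mean share of 6.46 percentage points (two-sided exact permutation test, p = 0.33, which is the smallest p that 2 against 2 samples allow). Old sample 1 had the higher share of the old samples, and their intervals did not overlap. These intervals cover counting error only and not the spread between mice.

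The same order held below the threshold. A sum of 1 to 4 UMIs was counted in 9 and 41 droplets of the young samples, and in 1893 (40.8%) and 737 (33.7%) droplets of the old samples. Just outside the rule, a sum of exactly 4 occurred in 0, 0, 116 and 21 droplets of young samples 1 and 2 and old samples 1 and 2, and just inside it a sum of exactly 5 occurred in 0, 2, 72 and 18. The 2 young members therefore lay at the threshold itself. The 6 rule genes came to 0.950 and 5.44 CPM (UMIs of a gene scaled to the same total of UMIs in every class of droplets) over all droplets of the young samples and to 496 and 280 CPM in the old samples. Members held 66.5% and 58.3% of the rule-gene UMIs of old samples 1 and 2. Nearly all of the rest lay in droplets with sums of 1 to 4 (3089 of 9247 and 1076 of 2667 UMIs). The few others lay in droplets with a C1q sum above 4.

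**Figure D1:**
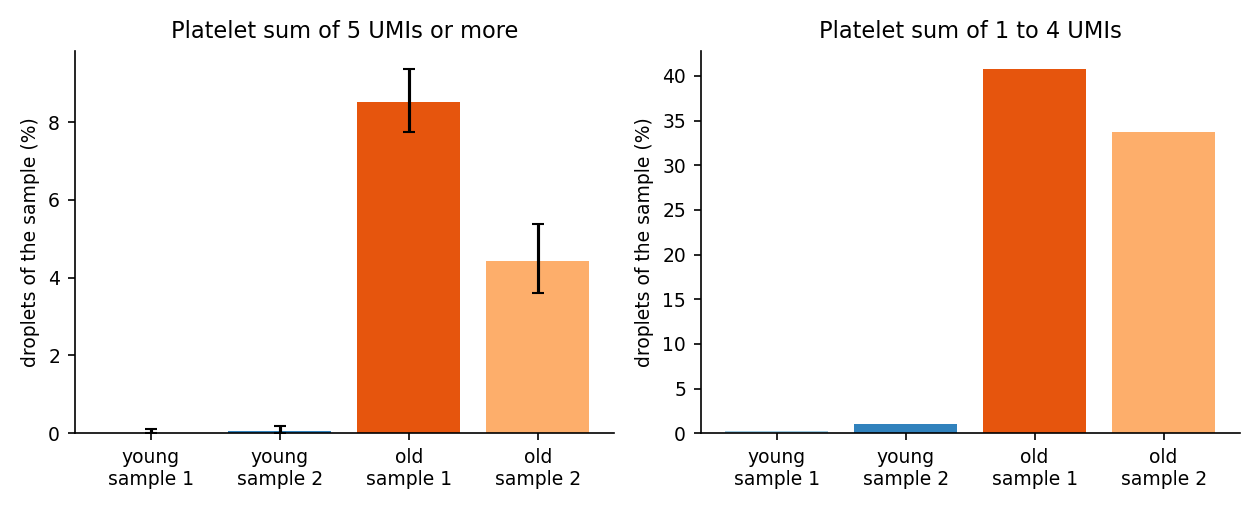
Share of droplets (%, y axis) in each of the 4 samples with a platelet sum of at least 5 UMIs (left, members, bars with exact 95% binomial intervals) and of 1 to 4 UMIs (right). The old samples stand at 8.53% and 4.44% on the left, and the young samples at 0 and 0.0519%.

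Depth differed between the samples and between members and other droplets. Totals per sample ran from 9521253 UMIs (old sample 2) to 18658072 UMIs (old sample 1). Members held a median of 5141 UMIs and 1630.5 genes in old sample 1 and of 4278 UMIs and 1411 genes in old sample 2, against 2686 UMIs and 1075 genes, and 3033 UMIs and 1150 genes, in droplets of the same samples with a sum of 0. Members were therefore deeper than the droplets with which they are compared. After each droplet was thinned to 1000 UMIs, a rule-gene sum of at least 2 was counted in 0, 1, 369 (7.95%) and 100 (4.57%) droplets of young samples 1 and 2 and old samples 1 and 2. The old samples also stood above the young ones at this equal depth. Within old sample 1 the share of members rose from 4.87% of droplets with 1000 to 2000 UMIs to 19.5% of those with at least 8000, while the thinned shares in these depth ranges were 9.62% and 8.88%. In old sample 2 the share rose from 3.05% to 6.44% over the same ranges, and the thinned shares were 5.34% and 0.99%, the latter on 2 of 202 droplets. Mitochondrial UMIs were alike, at 4.78% in members and 4.60% in sum-of-0 droplets of old sample 1 and at 3.84% and 3.83% in old sample 2. Haemoglobin and Alas2 UMIs made up 5.94% against 5.04% and 5.83% against 4.40%.

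Most members held few platelet UMIs. The rule-gene sum had a median of 9 UMIs in both old samples, and 208 members of old sample 1 (52.5%) and 52 of old sample 2 (53.6%) had fewer than 10. At the other end, 18 and 6 members had at least 50. The rule genes made up a median of 0.231% and 0.274% of a member's UMIs, with a highest value of 8.38% and 3.22%. A share of 6 genes does not tell how much of a member's RNA came from platelets. The members with these highest shares are not described here. The member with the highest sum, in old sample 1, held 122 UMIs of Ppbp, 24 of Itga2b, 24 of Gp9 and 70 of Pf4 among 10626 UMIs, beside 34 of the B cell receptor gene Cd79a and 13 of the myeloid lysozyme gene Lyz2. Its counterpart in old sample 2 held 82 UMIs of Ppbp, 6 of Itga2b, 7 of Gp9 and 26 of Pf4 among 6996 UMIs, beside 8 of Cd79a and 8 of Lyz2. Neither carried a UMI of Cd3e or Nkg7.

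The proportions among the rule genes were alike in the old samples. Ppbp, the precursor of a granule chemokine, gave 52.3% and 52.4% of the rule-gene UMIs of members. Gng11, a G protein gamma subunit, gave 19.7% and 19.6%. Itga2b, the alpha subunit of the fibrinogen receptor, gave 8.89% and 9.65%, and Gp9, part of the von Willebrand factor receptor, gave 9.32% and 8.55%. Clec1b, the podoplanin receptor, gave 6.58% and 7.20%, and Treml1, a granule membrane receptor, gave 3.27% and 2.57%. The sum was spread over several genes in most members, since at least 3 of the 6 had a UMI in 342 members (86.4%) of old sample 1 and in 88 (90.7%) of old sample 2, while 1 gene alone reached the threshold in 4 and 2 members. In droplets with sums of 1 to 4 the mix was different, with Ppbp at 37.5% and 37.2% and Gng11 at 36.8% and 38.7%. In the young samples, the 11 and 50 UMIs in such droplets included 1 and 9 of Ppbp, 5 and 21 of Gng11, 4 and 16 of Itga2b and 0 of Gp9 in both.

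At least 1 of 4 leukocyte genes had a UMI in every member. This is a low bar, because Cd79a alone had a UMI in most sum-of-0 droplets and members were deeper. The matching share of sum-of-0 droplets is not given here. Cd79a, Cd3e (a T cell receptor subunit), Lyz2 and Nkg7 (a granule gene of cytotoxic lymphocytes) were all without a UMI in 0 of 495 members, while 99 members held 1 of them, 337 held 2, 52 held 3 and 7 held all 4. Cd79a had a UMI in 90.7% of members and 85.9% of sum-of-0 droplets of old sample 1, and in 86.6% and 80.1% in old sample 2. Lyz2 had a UMI in 86.6% against 59.1% and in 72.2% against 50.8%, but at equal depth (1000 UMIs) in 41.4% against 32.0% and in 35.1% against 26.1%. The excess of droplets with a Lyz2 UMI was therefore smaller at equal depth. Cd3e had a UMI in 7.32% against 8.00% of droplets of old sample 1 and in 6.19% against 11.5% in old sample 2. Nkg7 had a UMI in 14.1% against 12.8% and in 8.25% against 9.61%, so that its direction differed between the old samples.

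In levels, Cd79a stood at 2458 CPM in members and 2367 CPM in sum-of-0 droplets of old sample 1, and at 2432 and 2283 CPM in old sample 2. Lyz2 stood lower in members, at 1941 against 3458 CPM and at 2552 against 3618 CPM, although more members held a UMI of it. Cd3e stood at 28.3 against 52.0 CPM and at 21.0 against 66.1 CPM, and Nkg7 at 107.5 against 187.9 CPM and at 75.7 against 203.8 CPM. The summed B cell list (which includes Cd79a, Cd79b, Ms4a1 and Ebf1) was level at 5892 against 5911 CPM and 5874 against 5847 CPM. The myeloid list (Lyz2, Csf1r, Ly6c2, Ccr2, Ms4a6c) was lower in members, at 2447 against 4299 CPM and 3187 against 4544 CPM.

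Each droplet was then placed by its B, T, NK or myeloid genes, where 1 list held at least 3 UMIs and at least 2/3 of the UMIs of these 4 lists, and it was called mixed where no list did. In old sample 1, 331 members (83.6%) were B-marker droplets and 29 (7.32%) myeloid-marker droplets, with 29 mixed, 2 T-marker, 1 NK-marker and 4 with too few UMIs. In old sample 2, 81 (83.5%) were B-marker and 10 (10.3%) myeloid-marker droplets, with 4 mixed, 2 T-marker and 0 NK-marker. Both young members were B-marker droplets. Among sum-of-0 droplets, B-marker droplets made up 76.8% and 73.1% and myeloid-marker droplets 12.4% and 13.1%.

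Read the other way, 331 of 3624 B-marker droplets of old sample 1 were members (9.13%, exact 95% interval 8.22 to 10.1%), as were 81 of 1598 in old sample 2 (5.07%, interval 4.05 to 6.26%). Of myeloid-marker droplets, 29 of 537 (5.40%, interval 3.65 to 7.66%) and 10 of 290 (3.45%, interval 1.67 to 6.25%) were members. The myeloid share lay below the B share in both old samples, by a mean of 2.68 percentage points, and the intervals overlapped in old sample 2. With 2 samples no exact sign-flip test can go below p = 0.5, so no test was made. The T-marker droplets held 2 members among 92 and 2 among 98. The NK-marker droplets held 1 among 63 and 0 among 30, and the latter allows a share of up to 10.0%. At equal depth, a sum of at least 2 was counted in 8.17% and 5.32% of B-marker droplets and in 6.15% and 2.41% of myeloid-marker droplets.

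**Figure D2:**
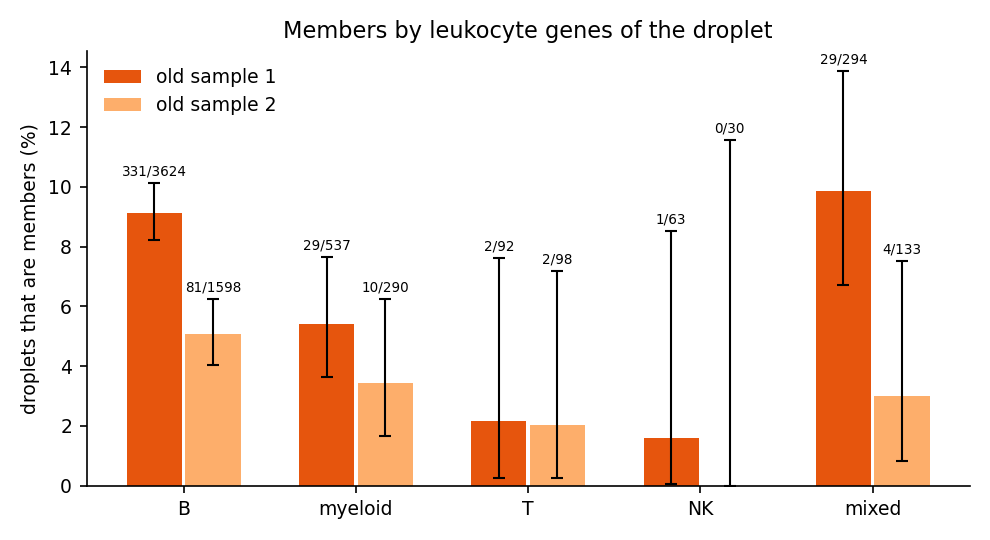
Share of droplets that were members (%, y axis) among B-, myeloid-, T- and NK-marker and mixed droplets of the 2 old samples, with exact 95% binomial intervals and members over droplets printed above each bar. B-marker droplets stand at 9.13% and 5.07% and myeloid-marker droplets at 5.40% and 3.45%.

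Platelet genes that the rule did not use were higher in members too. Levels were compared as the ratio of CPM in members to CPM in sum-of-0 droplets of the same sample, with 1 CPM added to both, and a gene was counted when the ratio was at least 2 in both old samples. Of 4609 genes with a UMI in at least 10% of the members of the old samples, 104 were higher (2.26%) and 3 were at most 0.5 (0.0651%). The filter pooled the members of both old samples, so some counted genes rest on few UMIs in old sample 2. Fam174b had 1 UMI in members and 2 in sum-of-0 droplets there, a ratio of 2.22. Detection in sum-of-0 droplets did not count for this filter. Genes low in members could therefore fail it, as Csf1r did with ratios of 0.42 and 0.33, so the 2 counts are not on equal terms. Since a rule-gene sum split the droplets, these ratios are given with no test. By old sample 1 alone 163 genes reached the limit, and by old sample 2 alone 148. Of the 62 genes of 4 platelet lists outside the rule that the count table holds, 40 passed the detection filter and 26 of these were higher. The filter favours genes that are high in members, and without it 40 of 62 were higher, against 270 of 14697 genes (1.84%). The median log2 ratio was 2.55 over the 40 genes and 2.12 over the 62, against -0.04 over all genes that passed. Members held a UMI of a median of 16 platelet-list genes outside the rule, against 6 in sum-of-0 droplets, in both old samples. These medians were not taken at equal depth, and members were deeper.

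Of the granule and secreted proteins, 7 of 14 genes passed and 4 were higher. Pf4, a granule chemokine, stood at 777 CPM in members and 56.7 CPM in sum-of-0 droplets of old sample 1, and at 820 and 36.0 CPM in old sample 2, ratios of 13.5 and 22.2. Clu, the chaperone clusterin, had ratios of 15.4 and 23.0, and Thbs1, the adhesive protein thrombospondin 1, of 14.3 and 15.3. Vwf, von Willebrand factor, had 47 UMIs in members and 13 in sum-of-0 droplets of old sample 1 and 16 and 9 in old sample 2, ratios of 8.60 and 12.4. Not all granule genes stood apart. Srgn, a granule proteoglycan of many blood cells, had ratios of 1.18 and 1.18, Tgfb1 of 1.05 and 1.26, and F13a1, a clotting factor subunit that monocytes also express, of 0.84 and 0.97. Selp, which encodes P-selectin, had a UMI in 2.03% of members, with 9 UMIs in members and 1 in sum-of-0 droplets of old sample 1 and 2 and 2 in old sample 2.

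Of the receptors and adhesion molecules, 11 of 18 listed genes passed and 10 were higher. The von Willebrand factor receptor genes stood well apart. Gp5 was at 95.2 against 2.23 CPM in old sample 1 and at 159.9 against 2.00 CPM in old sample 2 (ratios of 29.8 and 53.7), and Gp1bb at 232.4 against 7.91 CPM and 256.7 against 8.19 CPM (26.2 and 28.0). Their partner Gp1ba did not pass the filter and had 42 UMIs in members and 5 in sum-of-0 droplets of old sample 1. In old sample 2 it had 10 and 0, which makes it at least 35.1-fold higher in CPM against a floor of 3 counts. Gp6, the collagen receptor, had ratios of 18.6 and 25.8. F2rl2, a thrombin receptor, had ratios of 8.56 and 28.5, the ATP receptor P2rx1 of 8.92 and 13.8 and the ADP receptor P2ry12 of 6.73 and 11.3. F2rl3, another thrombin receptor, had 2 and 3 UMIs in old sample 1 and 1 and 3 in old sample 2 and did not pass the filter. The thrombin receptor gene F2r, of the signalling list, did not pass either, with 5 and 44 UMIs and 2 and 32 UMIs (ratios of 0.51 and 0.70). P2rx1 rested on 10 and 3 UMIs in old sample 2, and its CPM ratio there without the added 1 CPM had a counting interval of 9.04 to 198.4. Itgb3, the integrin partner of Itga2b, had ratios of 6.89 and 11.1, and Cd9, a tetraspanin also found on B cells, of 4.70 and 6.71. Pecam1, an adhesion molecule of many leukocytes, had ratios of 0.90 and 0.99.

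Of the cytoskeleton genes, 12 of 15 passed and 5 were higher. Nrgn, a calmodulin-binding protein, stood at 723 against 35.4 CPM and at 608 against 21.2 CPM (ratios of 19.9 and 27.5). Parvb, which links integrins to actin, had ratios of 14.9 and 22.3, and Myl9, a myosin light chain, of 13.3 and 20.3. Mylk, the kinase of that chain, had ratios of 12.3 and 21.7, and the tropomyosin gene Tpm4 had 2.18 and 2.78. The other 7 that passed lay below a ratio of 2 in at least 1 old sample, among them Fermt3 (kindlin-3) with 1.89 and 2.22, Tuba4a with 1.95 and 2.11, Tln1 with 1.09 and 1.01 and Flna with 0.83 and 1.08. Tubb1, the beta tubulin of the platelet rim, was nearly undetected, with 3 UMIs in members of old sample 1 and 0 in those of old sample 2, and 0.609% of members carried one.

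Of the signalling, lipid and granule transport genes, 10 of 15 passed and 7 were higher. Alox12, the platelet lipoxygenase, stood at 167.7 against 6.92 CPM and at 214.6 against 2.80 CPM (ratios of 21.3 and 56.8). Rab27b, a granule transport GTPase, had ratios of 12.4 and 13.4 and Tbxas1, thromboxane synthase, of 6.66 and 5.62. The G protein regulators Rgs18 and Rgs10 had ratios of 4.25 and 4.92, and of 4.12 and 4.74. The fusion protein gene Stx11 had 3.49 and 5.05, and Plek, which encodes pleckstrin, had 2.34 and 2.69. Snap23 lay just under the limit at 1.88 and 1.67.

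Of 12 listed genes for megakaryocyte transcription factors, 5 passed and 1 of these was higher, while without the filter 3 of 12 were higher. Nfe2, needed for platelet release, stood at 31.4 against 11.1 CPM and 48.4 against 11.4 CPM (ratios of 2.68 and 3.99). Runx1 had ratios of 0.83 and 0.56, Fli1 of 0.76 and 0.72, Hhex of 0.93 and 0.78 and Lyl1 of 1.03 and 0.87. Gata1, the main erythroid and megakaryocytic GATA factor, had a UMI in 3.85% of members, below the detection filter, with 21 UMIs in members and 5 in sum-of-0 droplets of old sample 1 and 3 and 1 in old sample 2 (ratios of 6.53 and 6.09). Tal1, its partner in those lineages, also below the filter, had 7 and 0 UMIs in old sample 1 and 4 and 4 in old sample 2, with ratios of 4.19 and 5.23. Summed over the list, members and sum-of-0 droplets were level at 337 against 334 CPM and 313 against 327 CPM. The cell cycle list stood at 16.9 against 14.1 CPM and 6.31 against 27.6 CPM, and 0 of its 5 genes passed the filter.

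**Figure D3:**
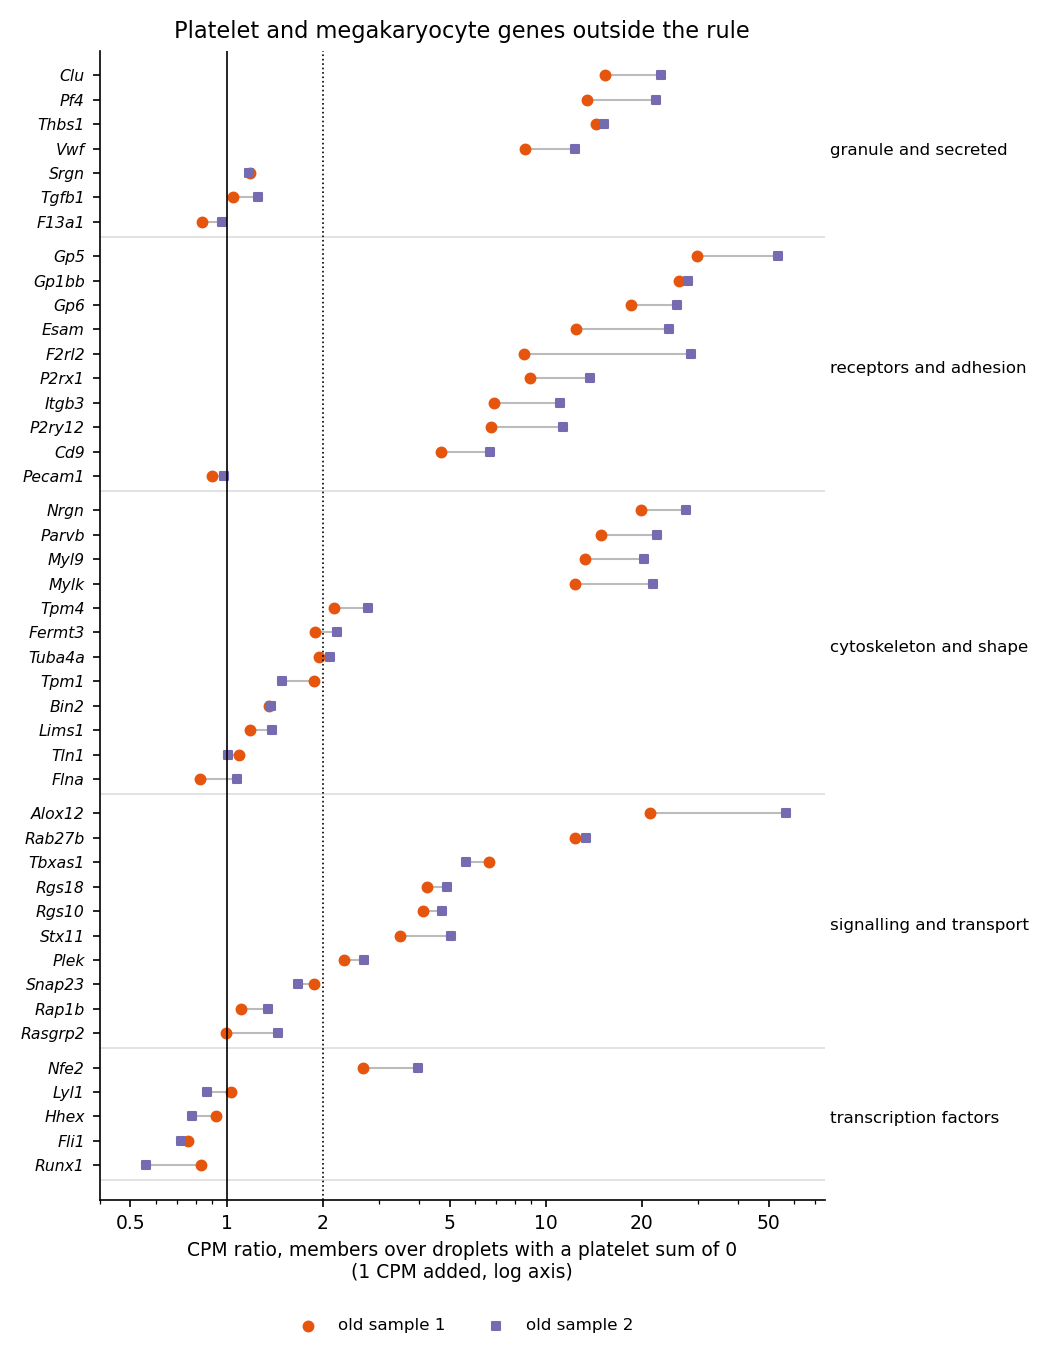
Ratio of CPM in members to CPM in droplets with a platelet sum of 0 (x axis, log scale, 1 CPM added) for genes of the platelet and megakaryocyte lists outside the rule that passed the detection filter, by list, with 1 point per old sample. Gp5 and Alox12 reach 53.7 and 56.8 in old sample 2, while Runx1, Fli1, Srgn and Pecam1 lie between 0.56 and 1.18.

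Of the 104 higher genes, 71 were in none of the lists. The 10 with the highest ratio in their lower sample were Cald1, Sdpr, Fhl1, Tmem40, Rbpms2, Tsc22d1, Mfsd2b, Arhgap10, Gas2l1 and Srxn1. Tsc22d1, a leucine zipper regulator, was the most widely detected of them, with a UMI in 75.3% of members and 608 against 47.2 CPM and 795 against 28.8 CPM (ratios of 12.6 and 26.7). Sdpr, a caveola-associated protein, had ratios of 18.2 and 28.5, Fhl1, a LIM domain protein, of 17.4 and 32.4, and Cald1, the actin-binding caldesmon, of 18.4 and 19.8. Rbpms2, an RNA-binding protein, had ratios of 14.9 and 42.9. It had 79 UMIs in members and 12 in sum-of-0 droplets of old sample 1 but 24 and 1 in old sample 2. Without the added 1 CPM, its ratio in old sample 2 was 252.6, with a counting interval of 41.2 to 10390. Srxn1, an antioxidant enzyme, had the lowest ratios of the 10, at 9.38 in both. Ctla2a, picked out after its values were seen, had a UMI in 95.7% of members and stood at 1150 against 217 CPM and 1111 against 160 CPM. The 3 lower genes, Hp, Msrb1 and Rgs2, had ratios from 0.44 to 0.49.

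The B-marker droplets gave the same comparison within 1 kind of leukocyte. Of 4692 genes that passed there, 114 were at least 2-fold higher in members in both old samples (2.43%) and 0 were at most 0.5. Of these, 96 were among the 104 above, which is 92.3% of the 104 and 84.2% of the 114. Pf4 stood at 697 against 55.2 CPM and 787 against 34.7 CPM, Gp1bb at 205 against 6.72 CPM and 232.6 against 8.13 CPM, and Clu at 226 against 14.2 CPM and 212 against 8.67 CPM. Nfe2 reached 24.0 against 2.08 CPM and 43.5 against 1.63 CPM. Cd79a itself was lower in members, at 2731 against 2995 CPM and 2924 against 3036 CPM.

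Myeloid transcripts went both ways in B-marker members. Lyz2 was higher at 443 against 250 CPM and 348 against 154 CPM, with a UMI at equal depth in 36.0% against 22.4% and in 30.9% against 15.8% of droplets. The other genes of the myeloid list had ratios of 4.30 and 1.18 for Ms4a6c, 1.5 and 0.67 for Ccr2, 0.86 and 0.65 for Ly6c2 and 0.89 and 0.84 for Csf1r. Other genes known from monocytes and macrophages, chosen after their values were seen, were more than 2-fold higher, with Alox5ap at ratios of 3.28 and 3.08, Lgals3 at 2.43 and 3.30, Cd68 at 2.55 and 2.56 and S100a4 at 2.06 and 2.14. Over all droplets the same ratios were 0.73 and 0.88, 0.63 and 1.09, 0.88 and 0.88, and 0.72 and 0.82. The comparison over all droplets and the one within B-marker droplets thus differed in direction for Alox5ap, Cd68 and S100a4, as it did for F13a1 (4.34 and 9.11 within B-marker droplets), and myeloid-marker droplets made up a smaller share of members than of sum-of-0 droplets in both old samples. In B-marker droplets Cd3e stood at 5.22 against 6.08 CPM and 2.56 against 5.42 CPM, and Nkg7 at 21.9 against 18.4 CPM and 12.8 against 8.13 CPM. Of the other T cell list genes, Lat had ratios of 1.70 and 2.15 there, Cd3d of 1.29 and 0.17 and Cd3g of 1.19 and 0.53. In B-marker droplets 0 genes of this list passed the detection filter. B-marker droplets were not screened for droplets with 2 cells, and the part of such droplets in these values was not tested.

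Genes that earlier work on these data had tied to B cell subsets also differed between B-marker members and sum-of-0 B-marker droplets. Fcer2a, the low-affinity IgE receptor, stood at 44.4 against 98.4 CPM in old sample 1 and at 76.7 against 86.7 CPM in old sample 2, and Vpreb3, a pre-B-cell-receptor associated gene, at 47.0 against 116.3 CPM and 71.6 against 101.3 CPM. Crip1, a LIM domain protein, stood at 11743 against 9248 CPM and 5708 against 3975 CPM, and S100a6, a calcium-binding protein, at 4106 against 2613 CPM and 1549 against 990 CPM. All 4 lay on the same side in both old samples, but narrowly for Fcer2a in old sample 2. No test was made of these differences, and their counting error is not given here. Adm, the adrenomedullin gene, stood at 178 against 21.4 CPM in old sample 1 and at 5.11 against 3.79 CPM in old sample 2.

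Pf4 rose with the platelet sum, while the B cell genes did not. In old sample 1, Pf4 stood at 56.7, 76.8 and 134 CPM in droplets with sums of 0, 1 and 2 to 4. It then stood at 337, 662, 1350 and 3988 CPM in members with sums of 5 to 9, 10 to 19, 20 to 49 and at least 50. In old sample 2 the values in the same order were 36.0, 64.7, 109, 381, 839, 1033 and 3700 CPM. Each step was higher than the one before in both old samples, although the last class held 18 and 6 droplets. The B cell list went from 5911 CPM at a sum of 0 to 5161 CPM at the highest sums in old sample 1, and from 5847 to 4055 CPM in old sample 2. The share of B-marker droplets was 76.8% and 73.1% at a sum of 0, between 83.0% and 86.3% in old sample 1 and between 80.8% and 92.3% in old sample 2 at sums of 5 to 49, and 61.1% and 66.7% in the highest class.

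**Figure D4:**
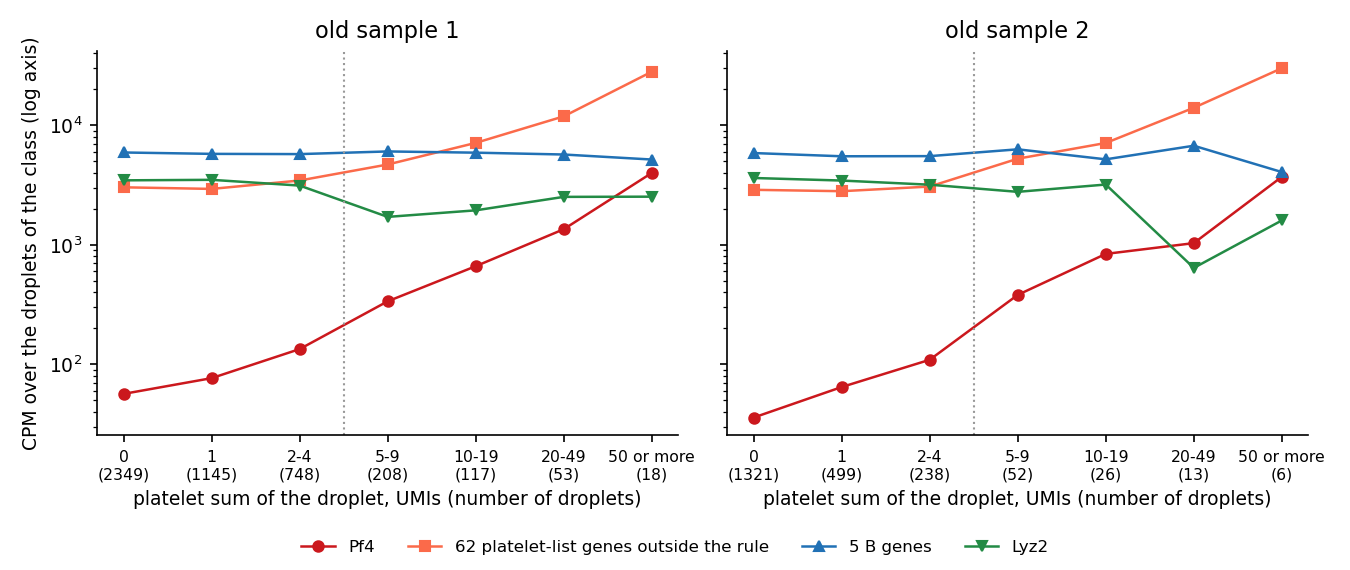
Levels (CPM, log axis) of Pf4, of the 62 platelet-list genes outside the rule, of the 5 B cell genes and of Lyz2 by the platelet sum of the droplet (x axis, UMIs, with the number of droplets), for old samples 1 (left) and 2 (right). The dotted line marks the threshold of 5, and Pf4 climbs from 56.7 to 3988 CPM and from 36.0 to 3700 CPM while the B cell genes stay between 4055 and 5911 CPM at both ends.

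Platelet RNA was also found at low levels in old droplets without a rule-gene UMI. Pf4 had a UMI in 17.3% of sum-of-0 droplets of old sample 1 and 13.1% of those of old sample 2, against 0.206% and 0.869% in the young samples. By kind of droplet the shares were close to each other, at 17.0% of B-marker, 15.5% of T-marker and 18.2% of myeloid-marker droplets in old sample 1 and 12.8%, 15.1% and 12.7% in old sample 2. In members the share was 85.4% and 85.6%, and at 1000 UMIs it was 46.2% and 47.4%, against 5.11% and 3.26% in sum-of-0 droplets. The part of free RNA in the values of members was not tested.

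Red cell RNA was present in all members of the old samples and equally in all of their sum-of-0 droplets. The list of haemoglobin genes and Alas2 stood at 59368 against 50379 CPM and 58276 against 44043 CPM. The macrophage list (the 3 C1q genes, Cd5l, Vcam1, Mrc1) stood at 1.37 and 18.9 CPM in members, and the basophil list (Mcpt8, Cd200r3, Ms4a2, Fcer1a, Cpa3) at 11.9 and 0 CPM, both below sum-of-0 droplets. The neutrophil list (S100a8, S100a9, Camp, Ngp, Retnlg) stood at 873 CPM in members of old sample 1 and 0 in those of old sample 2, but 1 droplet held 740 of the 777 UMIs of S100a8, and without it the list fell to 28.3 CPM. The T cell list stood at 133 against 244 CPM and 116 against 333 CPM, and the NK list at 129 against 231 CPM and 77.8 against 251 CPM. Droplets with a C1q sum above 4, which the rule leaves out, numbered 6 and 16 in the young samples and 4 and 32 in the old samples, and 0 of them had a platelet sum of at least 5. Cell barcodes shared between samples occurred in 216 droplets, 10 of them members.

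With 0 and 2 young members, gene levels in members could not be compared between ages. All droplets of a sample were therefore added up and compared by the quasi-likelihood test of edgeR, a comparison added after the numbers of members had been seen. In such sums, more droplets with platelet RNA and more platelet RNA per droplet cannot be told apart, nor can either be told apart from a difference in the preparation of the pools. Of 11476 genes tested, 617 were higher in old samples (5.38%) and 444 lower (3.87%) at a Benjamini-Hochberg adjusted p under 0.05, and in 2843 both old samples lay above both young ones (24.8%). The counts moved with single samples: 103 genes were higher without young sample 1, 212 without young sample 2 and 1426 without old sample 2. Of the 62 platelet-list genes outside the rule, 55 were tested: 23 were higher, 3 were lower, and in 40 both old samples lay above both young ones. Without young sample 1, 15 of the platelet-list genes were higher. The median log2 fold change over the 55 tested genes was 1.52. Setting genes absent from the young samples to their lower bound could not move it, because these bounds all lay above it. By list, 5 of 11 granule genes, 8 of 17 receptors, 4 of 13 cytoskeleton genes, 6 of 14 signalling genes and 1 of 11 transcription factors were higher.

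Among granule genes, Clu rose from 0.173 and 0.454 CPM in the young samples to 49.2 and 23.4 CPM in the old samples (log2 fold change 6.88, SE 0.58, edgeR adjusted p = 0.0048). Vwf rose from 0.0864 and 0.726 CPM to 4.29 and 3.99 CPM (3.38, SE 0.69, edgeR adjusted p = 0.040), and F13a1 from 8.46 and 12.4 CPM to 42.5 and 48.1 CPM (2.16, SE 0.23, edgeR adjusted p = 0.0078). Within B-marker droplets F13a1 lost its call (3.08, edgeR adjusted p = 0.12). The myeloid list had 3 of 5 genes higher in old samples. Pf4 stood at 5.87 and 36.9 CPM against 161 and 152 CPM but missed the threshold (2.89, SE 0.76, edgeR adjusted p = 0.075). Droplets with a C1q sum above 4 held 88.2% and 89.9% of the Pf4 UMIs of the young samples, and 0.0332% and 39.7% of those of old samples 1 and 2. Within B-marker droplets alone, Pf4 was called higher in old samples (5.96, edgeR adjusted p = 0.0065), and over the 11 alternatives to the fit on all droplets, this one included, its adjusted p ran from 0.0048 to 0.14. Vwf lost its call in 5 of 11 alternatives, among them those without young sample 1 (2.49) and without the members (2.46, edgeR adjusted p = 0.10).

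Among receptors, Gp5 and Gp6 had 0 UMIs in both young samples. Gp5 had 268 and 108 UMIs in the old samples, at least 100.5-fold higher against a floor of 3 counts over the young group, and Gp6 was at least 47.9-fold higher. Gp1bb rose from 1.47 and 2.72 CPM to 40.6 and 23.6 CPM (3.98, SE 0.39, edgeR adjusted p = 0.0061) and Cd9 from 58.0 and 68.1 CPM to 281 and 222 CPM (2.03, SE 0.16, edgeR adjusted p = 0.0048). P2ry12 rose from 0.259 and 0.363 CPM to 8.52 and 5.46 CPM (4.51, SE 0.43, edgeR adjusted p = 0.0055). Itgb3 missed the threshold at 6.65 and 7.53 CPM against 9.11 and 7.98 CPM (0.32, SE 0.19, edgeR adjusted p = 0.35), was called within B-marker droplets (1.17, edgeR adjusted p = 0.047) and stood at -0.40 without members (edgeR adjusted p = 0.29). The adhesion receptor Cd226, which T and NK cells share, fell by 1.55 (edgeR adjusted p = 0.028), and all 4 T cell genes and 4 of 5 NK genes tested were lower in old samples. Within B-marker droplets Cd226 stood at 0.64 in the other direction (edgeR adjusted p = 0.48). Of its 10 alternatives, 3 others also lost the call, among them those without young sample 1 and without young sample 2.

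Among cytoskeleton and signalling genes, Myl9 rose from 0.0864 and 0.907 CPM to 62.3 and 33.9 CPM (6.64, SE 0.62, edgeR adjusted p = 0.0055), Nrgn from 1.99 and 7.08 CPM to 147 and 69.2 CPM (4.61, SE 0.63, edgeR adjusted p = 0.015) and Parvb from 2.42 and 1.18 CPM to 21.0 and 15.6 CPM (3.39, SE 0.32, edgeR adjusted p = 0.0055). Parvb and Stx11 lost their calls in B-marker droplets without members (edgeR adjusted p = 0.091 and 0.071). Alox12 had 0 and 3 UMIs in the young samples and 551 and 169 in the old samples, a CPM ratio of 192 with a counting interval of 65.6 to 936. Stx11 rose from 9.59 and 9.62 CPM to 30.3 and 23.6 CPM (1.54, SE 0.16, edgeR adjusted p = 0.0077). Rgs10 and the thrombin receptor gene F2r fell by 0.80 and 1.40 on the log2 scale (edgeR adjusted p = 0.023 and 0.013), although Rgs10 was higher in members than in sum-of-0 droplets of both old samples. Within B-marker droplets Rgs10 stood at 0.79 in the other direction (edgeR adjusted p = 0.076). Leaving out young sample 1 or 2 ended the calls of Rgs10 and F2r, and leaving out young sample 1 ended that of Stx11. Rgs10 lost its call in 4 of 12 alternatives, these included, beside the 1 in which its direction turned. Of the transcription factors Gfi1b alone was called higher, on 1 and 2 UMIs in the young samples and 24 and 12 in the old samples, a CPM ratio of 9.62 with a counting interval of 3.04 to 48.9. That call was lost in 5 of 9 alternatives, among them those without either young sample and without old sample 1. Nfe2 missed the threshold (1.18, SE 0.31, edgeR adjusted p = 0.073) and Gata1 stood at 0.950 and 1.36 CPM against 1.93 and 0.525 CPM.

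The 10 genes with the largest fitted rise among those called whose groups did not overlap included Ppbp, Gp9, Gp5, Gp6, Esam, Mylk, G6b, Cdc42ep5 and Myct1, and 7 of the 10 belong to the rule or the platelet lists. The 10 with the largest fall were A530021J07Rik, 1110032F04Rik, Gm30948, Slc16a5, Ampd1, Gm37469, Igsf3, Tmie, Lypd6b and Dapl1, and 0 of these are in the platelet lists. Within B-marker droplets, 408 of 10258 genes were higher in old samples (3.98%), 24 of them among 47 platelet-list genes tested. With members left out, 576 of 11440 genes were higher (5.03%), 17 of them among 51 platelet-list genes tested. Clu, Gp1bb, Cd9, P2ry12, Gp5, Gp6, Myl9, Nrgn and Alox12 were called higher in both of these settings.

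**Figure D5:**
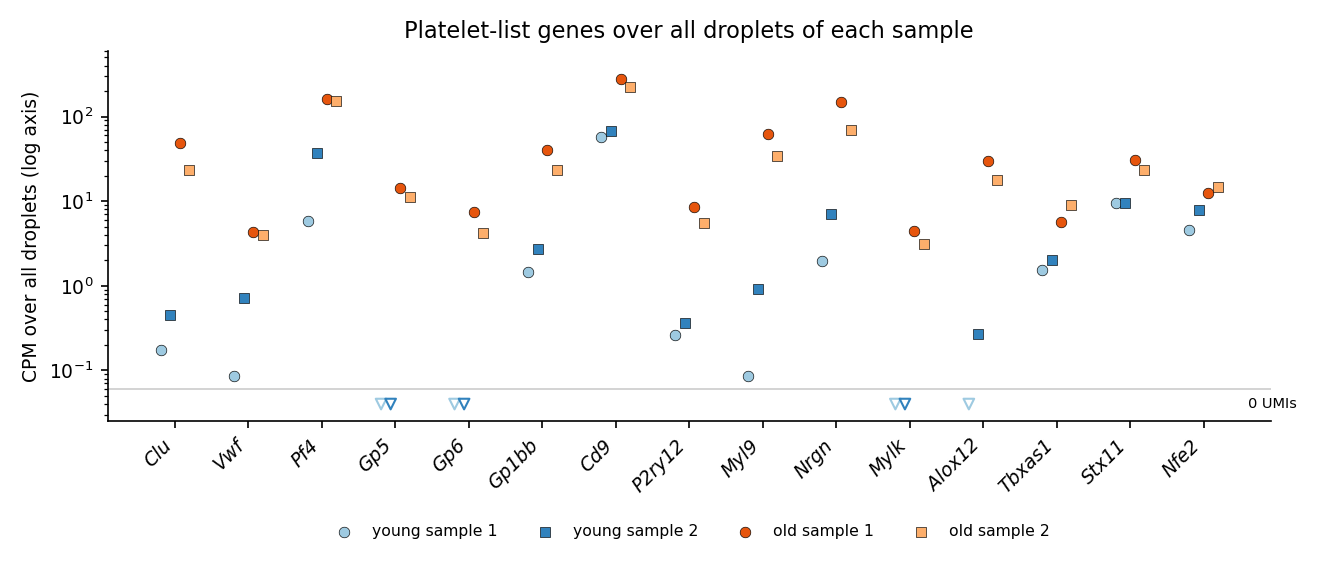
Levels (CPM over all droplets of a sample, log axis) of platelet and megakaryocyte genes outside the rule in the 2 young and 2 old samples, 1 point per sample, with open triangles on the lowest line for 0 UMIs. Gp5 and Gp6 are at 0 UMIs in both young samples, and Clu lies at 0.173 and 0.454 CPM in young and 49.2 and 23.4 CPM in old samples.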

How the data were processed

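The deposited table held UMI counts per gene and cell as whole numbers, which the authors made with Cell Ranger on the mm10 transcriptome. Samples of the same age were first combined with the aggr step of Cell Ranger, separately for young and old, so this step and age cannot be told apart, and no source used here states whether it equalised depth. Young and old tables were merged in Seurat 2.3.0, and cells with under 500 or over 4000 genes or over 10% mitochondrial reads had been removed. Samples were taken from the deposited cell metadata, and 0 columns of per-sample values were left unused. The metadata as used here name no cell type. No cells were clustered and no doublet caller was run.

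The members and gene lists were chosen with earlier results of these data known. A sample, which is a pool of 2 mice, was the replicate (2 per age), so p-values measure the spread between pools. Droplets were summed per sample and class and scaled to CPM, and ratios were taken after adding 1 CPM. Genes named outside the lists were the 10 with the highest ratio in their lower sample, and the 10 with the largest fold change in each direction for the edgeR test. Droplets were thinned to 1000 UMIs with a fixed seed. Binomial intervals (95%, Clopper-Pearson) and the limit that a count of 0 allows (3 counts) cover counting error only. Tests of old against young members, and of their difference from other droplets, could not be fitted because 1 young sample held no member. The edgeR test over all droplets was added in their place (filterByExpr, TMM, glmQLFit, Benjamini-Hochberg adjustment, threshold 0.05), was tested on simulated data, and was repeated with DESeq2, other filters, other droplets, a replicate block and each sample left out. Where that left 1 sample in a group, its spread was assumed to be that of the other. The tables were read with Python 3.11.15, numpy 2.4.6, pandas 2.3.3 and scipy 1.17.1, and tests were run in R 4.3.3 with edgeR 4.0.16, limma 3.58.1 and DESeq2 1.42.0. Upstream sequences came from the RefSeq table on GRCm38.p6, in which 5 of 6 rule genes and 51 of 65 platelet-list genes had an entry. Some genes of the lists are counted in their totals but are not reported here by name.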

Additional observations from a re-analysis of the deposited data

How the results depend on the processing

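The old-minus-young difference in the share of members stayed positive under each alternative, from 3.05 points (threshold of 10) to 11.8 points (threshold of 3), and from 4.41 to 8.50 points without 1 sample, with the smallest possible p in each of the tests. The excess of droplets with a Lyz2 UMI in members (24.4 points) was 9.17 at equal depth, 30.4 at a threshold of 10 and 18.7 at a threshold of 3. That of Nkg7 (0.00176 points) had no stable direction, at -2.43 at equal depth, 3.77 at a threshold of 10, -0.339 at a threshold of 3 and -1.37 to 1.37 without 1 old sample. The myeloid-minus-B difference (-2.68 points) was -1.05 at a threshold of 10 and -4.20 at a threshold of 3. The 104 genes at least 2-fold higher in members became 176 at a threshold of 10, 65 at a threshold of 3, 55 at 4-fold, 270 without a filter and 148 to 163 without 1 old sample. The causes of these changes were not tested, and a lower threshold and a stricter fold are different counts by construction.

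For the test over all droplets (617 genes higher and 444 lower in old samples, 23 platelet-list genes higher), the counts were 259, 199 and 17 without a filter, 172, 192 and 3 with a UMI in 10% of droplets of each age, where fewer genes were tested, 408, 183 and 24 in B-marker droplets, and 309, 156 and 12 in B-marker droplets without members. DESeq2 gave 799, 470 and 28. Without 1 sample they ran from 103 to 1426, from 71 to 1009 and from 15 to 34. With the number in the titles as a replicate block, they were 972, 585 and 32, and Pf4 and Nfe2 passed the threshold (edgeR adjusted p = 0.0048 and 0.0096). Nothing in the labels says that equal numbers mark a shared batch, and with 2 pairs the correlation of deviations was 0.16. Of 216 repeats over 20 named genes, 180 kept direction and call, 23 lost the call, 10 gained it and 3 turned, namely Itgb3 without members (-0.40) and Cd226 and Rgs10 in B-marker droplets (0.64 and 0.79). With 2 pools per age, an exact test cannot reach 0.05, and the shallowest sample (9521253 UMIs) limits genes with few UMIs most.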
